A study of Homo sapiens with 9 samples.

Results

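The genes described here encode 10 ligands of costimulatory and checkpoint receptors: CD80, CD86, ICOSLG, CD274, PDCD1LG2, CD276, LGALS9, TNFRSF14, TNFSF9 and CD48. They were taken by symbol from the 59050 gene symbols of the deposited count table. All 10 had counts in every sample, and 9 of them passed the filter of more than 1 CPM (reads scaled to a common library size) in at least 3 samples. ICOSLG did not pass it.

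A T cell that meets antigen on a B cell reads a further set of surface ligands, some of which amplify its response and some of which restrain it. CD80 and CD86 bind the activating receptor CD28 and the inhibitory receptor CTLA4, while the product of CD274, known as PD-L1, and that of PDCD1LG2, known as PD-L2, bind the inhibitory receptor encoded by PDCD1. ICOSLG, TNFSF9 and CD48 engage ICOS, TNFRSF9 and CD244, and TNFRSF14 engages BTLA and CD160. Leukemic B cells in lymphoid tissue lie next to T cells and display ligands of both kinds.

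RNA was measured in MEC1, an established cell line from a patient with chronic lymphocytic leukemia (CLL), so that each group is a set of samples of 1 line. The title of every sample adds the letters PGK to the name of the line, and no source used here says what they mark. The groups were 3 samples of conventional culture (2D), 3 of cells bioprinted into a hydrogel and collected at day 7 (3D_7d), and 3 collected from the hydrogel at day 14 (3D_14d), with no drug and no added T cells named for any of them. The labels give no collection time for the 2D samples. Scaffolds were extracted with TRIzol and DNase before the column that was used alone for 2D, so culture and extraction cannot be told apart in a comparison with 2D, whereas both time points shared 1 procedure. No source states that the 3 samples of a group came from separate cultures, and p-values therefore measure the spread between these samples, which may be technical. In bulk RNA, fewer cells that express a gene and less RNA per cell cannot be told apart, and no surface protein was measured.

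Gene counts summed to between 54662799 and 85968686 per library. Replicates at day 14 differed more from each other than those of the other groups, their chi-square statistics per gene being 155 to 305 against 22.5 to 81.9. All 7 B cell markers were detected, and their summed level was 3239 to 3273 CPM in 2D, 3741 to 4337 CPM at day 7 and 4412 to 5077 CPM at day 14. CD22 went against this sum, with means of 542 CPM in 2D, 250 CPM at day 7 and 333 CPM at day 14, and its bioprinted libraries were all below its 2D libraries. Of 10 myeloid and dendritic cell markers, 1 was tested and the sum was 13.6 to 18.3 CPM in 2D, 2.16 to 6.37 CPM at day 7 and 2.46 to 3.78 CPM at day 14, with CD68 at 0 in every group. The tested marker, ITGAX, measured 12.4 to 17.4, 0.85 to 5.13 and 1.76 to 3.29 CPM in the same order. The sum of 8 T cell markers was 602 to 659, 703 to 741 and 784 to 1101 CPM in the same order, mostly from TRAC and LCK, with CD3D at 0 in 2D and at day 14. The sum of 6 NK cell markers was 15.0 to 18.2, 92.8 to 130 and 217 to 420 CPM, mostly from GNLY, and that of 4 stromal markers was 10.2 to 11.4, 2.28 to 5.21 and 2.63 to 7.84 CPM. Of the NK cell markers, NKG7 was below 2D at both time points (means of 1.66, 0.42 and 1.08 CPM). KLRF1 was below 2D at day 7 and above it at day 14 (means of 1.41, 0.91 and 2.82 CPM). The part of these shifts in the ligand results was not tested.

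The ligands did not move as a block. At day 7, TNFRSF14, CD48, CD274 and TNFSF9 were lower than in 2D and CD86 was higher, which made 5 of the 9 tested members past an adjusted p of 0.05, while 43.4% of all 13463 tested genes passed (22.2% up and 21.2% down). At day 14, PDCD1LG2 was higher and TNFRSF14 lower than in 2D, 2 of 9 members against 36.2% of all genes (19.0% up and 17.2% down). Between the time points, 5 of 9 members rose (PDCD1LG2, LGALS9, CD48, TNFSF9 and TNFRSF14) and 0 fell with edgeR, 0 at an unadjusted p under 0.05 and 0 with DESeq2, against 28.1% of all genes (14.5% up and 13.6% down). The median log2 fold change of the tested members was -0.51 at day 7, 0.10 at day 14 and 0.55 between the time points, and that of all tested genes was -0.0039, 0.023 and -0.0012. Every adjusted p below comes from the quasi-likelihood F test of edgeR, adjusted by Benjamini-Hochberg over the tested genes of a contrast, unless another tool is named.

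**Figure D1:**
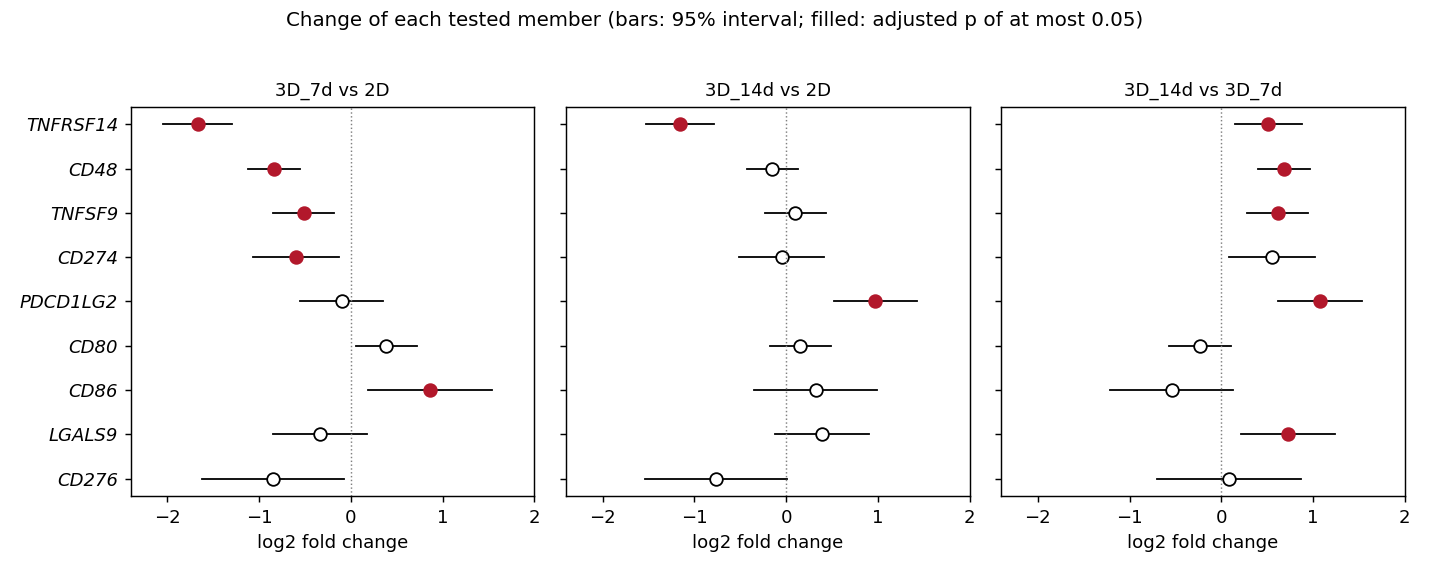
Log2 fold change of each of the 9 tested members in the 3 contrasts (x axis), with the 95% interval of the fit as a bar. Filled circles mark an adjusted p of at most 0.05, and TNFRSF14 lies at -1.67 and -1.16 against 2D, farther from 0 than any other tested member, while PDCD1LG2 is the member that lies highest at day 14.

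The 3 libraries of 1 group lay wholly on 1 side of those of the other for 7 of 9 members at day 7 (2 higher and 5 lower), against 64.6% of all tested genes (32.2% higher and 32.4% lower). They did so for 4 at day 14 (1 higher and 3 lower), against 49.7% (24.2% higher and 25.5% lower), and for 5 between the time points (4 higher and 1 lower), against 39.3% (18.9% higher and 20.5% lower). Scaling by total counts alone instead of the TMM factors moved the median of all genes by -0.16 at day 7, -0.21 at day 14 and -0.046 between the time points, and the share of higher among all called genes from 51.1% to 37.6%, from 52.5% to 33.0% and from 51.5% to 47.4%. Under that scaling, CD86 at day 7 and LGALS9 and TNFRSF14 between the time points no longer passed the threshold, and CD276 at day 7 and CD48 at day 14, both lower than in 2D, passed it.

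**Figure D2:**
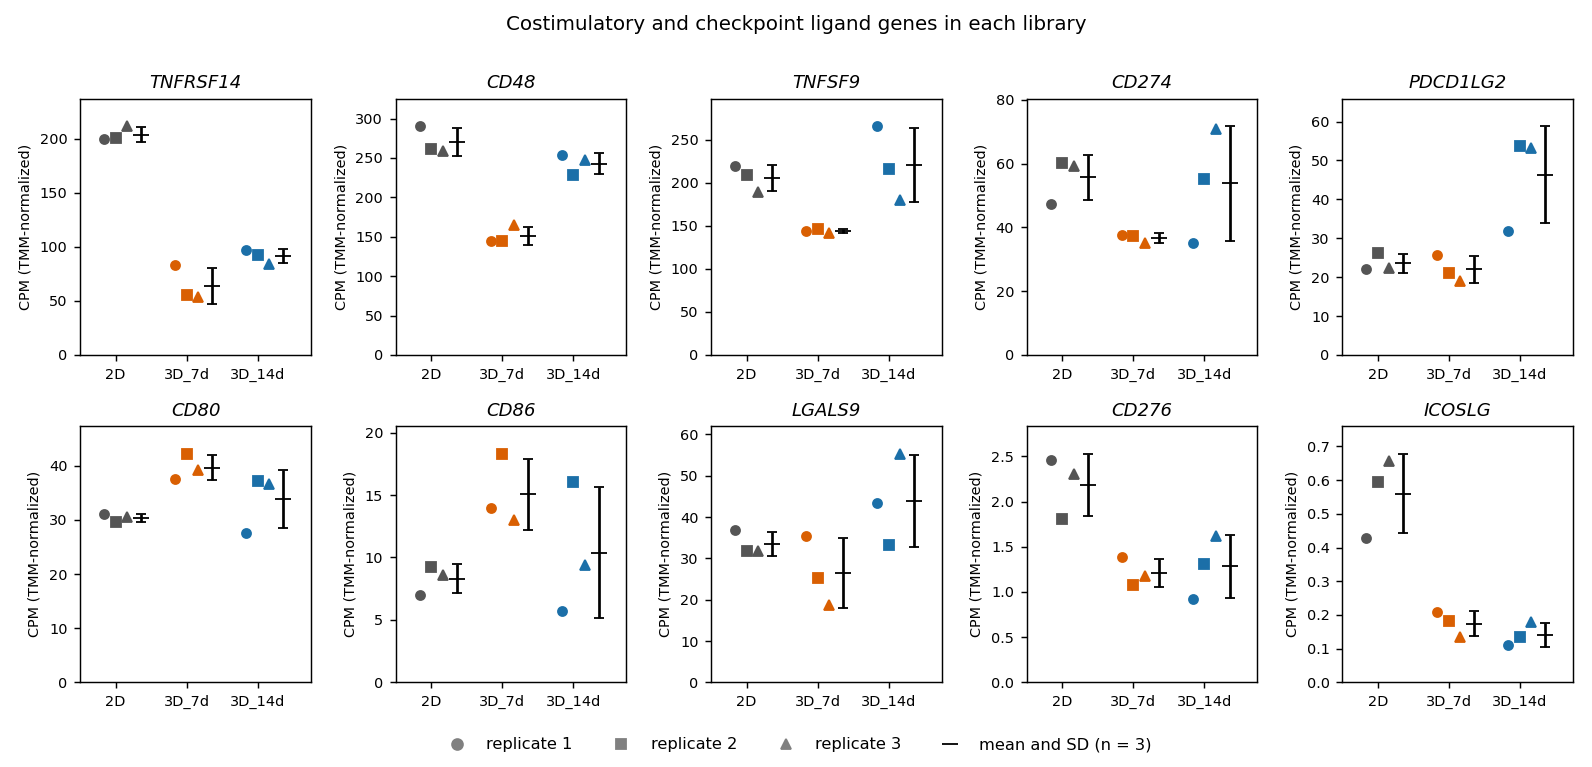
TMM-normalized CPM (y axis, from 0) of the 10 members in each of the 9 libraries, with a marker shape for the replicate number and the mean and SD of 3 libraries beside each group. TNFRSF14 stays between 53.7 and 97.3 CPM in the 6 libraries of bioprinted cells and above 200 CPM in 2D, and CD274, CD86 and PDCD1LG2 spread widely at day 14.

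CD80 and CD86, the ligands of CD28 and CTLA4, were both higher at day 7, although CD80 alone missed the threshold. CD86 (GRCh38, chr3:122055362-122121139, plus strand, 8 exon blocks) measured 7.01, 9.25 and 8.61 CPM in the 2D libraries, 13.9, 18.3 and 13.0 CPM at day 7 and 5.69, 16.0 and 9.41 CPM at day 14. Each day 7 library was above each 2D library, whereas the day 14 libraries ran from below the lowest 2D value to near the highest day 7 value. The log2 fold change of CD86 was 0.86 at day 7 (SE 0.31, adjusted p = 0.039), 0.32 at day 14 (SE 0.31, adjusted p = 0.44) and -0.54 between the time points (SE 0.31, adjusted p = 0.21). The day 7 call was lost on leaving out any 2D library (0.71, 0.90 and 0.84 without replicates 1, 2 and 3), any day 7 library (0.89, 0.67 and 0.92) or day 14 replicate 3 (0.86), and with total counts alone (0.70). Without day 14 replicate 2, CD86 was called lower at day 14 than at day 7 (-0.99), and its day 14 value against 2D turned to -0.13.

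RefSeq (GRCh38.p14) lists separate transcription starts for CD86, and the 250 bases before the downstream start are shown because they hold 2 matches, in capitals, to the kB motif of NF-kB (GGG, any 3 bases, TTCC). They cover chr3:122077534-122077783 on the plus strand, with matches 82 and 20 bases before the start, the second of them on the minus strand. The motifs were picked after the values of the members were seen, both strands were searched, and 5.67% of 35116 RefSeq promoter windows of 250 bases hold a kB match. The window before the upstream start of CD86 held no match to any of the motifs searched.
CD86: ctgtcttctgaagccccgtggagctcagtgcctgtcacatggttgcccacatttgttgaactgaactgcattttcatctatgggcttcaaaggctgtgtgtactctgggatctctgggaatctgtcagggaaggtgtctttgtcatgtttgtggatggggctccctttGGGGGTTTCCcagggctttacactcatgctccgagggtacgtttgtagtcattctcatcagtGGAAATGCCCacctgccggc

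CD80 (chr3:119524293-119559614, minus strand, 7 exon blocks) measured 31.1, 29.6 and 30.5 CPM in 2D, 37.6, 42.2 and 39.1 CPM at day 7 and 27.6, 37.2 and 36.6 CPM at day 14. The day 7 libraries were all above the 2D libraries and above the day 14 libraries, and day 14 overlapped 2D. CD80 differed from 2D at day 7 by a log2 fold change of 0.39 (SE 0.15, 95% interval 0.050 to 0.72, adjusted p = 0.060), and it passed the threshold in 5 of 16 alternative fits, among them DESeq2 and each fit without 1 of the day 14 libraries (0.37, 0.38 and 0.38). At day 14 it was 0.15 (SE 0.15, adjusted p = 0.46). Of the exonic bases of CD80, 26.5% are also exonic in TIMMDC1, a gene of mitochondrial complex assembly on the other strand, which carried 62556 reads over the 9 libraries against 18964 for CD80. TIMMDC1 rose by a log2 fold change of 0.70 at day 7 and 0.58 at day 14. The library kit does not mark strand, so reads of the shared bases cannot be assigned to either gene.

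Within each library the level of CD80 per kilobase was 3.10 to 4.31 times that of CD86 in 2D, 2.24 to 2.93 times at day 7 and 2.26 to 4.72 times at day 14. The ratio was lower in every day 7 library than in any 2D library, and the day 14 libraries spanned both ranges.

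ICOSLG, the ligand of ICOS, was near the limit of detection (chr21:44222991-44240966, minus strand, 6 exon blocks). Its raw counts were 26, 55 and 50 in 2D, 12, 10 and 7 at day 7 and 6, 7 and 10 at day 14. All bioprinted libraries were below all 2D libraries, at 0.11 to 0.21 CPM against 0.43 to 0.66 CPM. ICOSLG was fitted in 2 of the alternatives, with a log2 fold change of -1.67 (adjusted p = 0.30) at day 7 and -2.03 (adjusted p = 0.17) at day 14 without a filter, and of -1.66 (adjusted p = 0.064) and -1.97 (adjusted p = 0.039) with edgeR's filterByExpr. Its counts were highest in 2D, so its passing of filterByExpr adds nothing to the difference.

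Reads of ICOSLG can also fall on another locus. GRCh38 holds a second copy of the gene, listed in the count table as FP565260.3 (chr21:5022493-5040666, plus strand, 8 exon blocks), and GENCODE marks it as an artifactual duplication. Of the 100-base stretches of the copy's annotated transcripts, 90.6% recur in those of ICOSLG, and 13.7% of those of ICOSLG recur in the copy. The copy drew more reads than ICOSLG in every library: 137, 194 and 154 in 2D, 56, 33 and 54 at day 7 and 22, 47 and 30 at day 14. How the authors' counting treated reads that align equally well to both is not given in the sources used here.

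With the counts of ICOSLG and its copy summed to 1 gene, a step added after the data were seen, the level was 2.69, 2.69 and 2.68 CPM in 2D, 1.18, 0.79 and 1.16 CPM at day 7 and 0.52, 1.03 and 0.72 CPM at day 14. Every bioprinted library lay below every 2D library. The log2 fold change of the sum was -1.37 at day 7 (SE 0.38, adjusted p = 0.011) and -1.83 at day 14 (SE 0.38, adjusted p = 0.0029), and it passed the threshold in 16 of 16 alternative fits at each time. Between the time points it was -0.46 (SE 0.38, adjusted p = 0.38). The sum passed the filter in all 3 samples of 2D, the group where it was high, so its presence among the tested genes adds nothing to the difference.

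The 2 ligands of PD-1 differed from 2D at different times: CD274 was called lower at day 7 and PDCD1LG2 was called higher at day 14. CD274 (chr9:5450503-5470566, plus strand, 7 exon blocks) measured 47.5, 60.3 and 59.3 CPM in 2D, 37.7, 37.4 and 34.96 CPM at day 7 and 35.2, 55.2 and 71.0 CPM at day 14. The day 7 libraries were close to each other and below all 2D libraries, while day 14 ran from the day 7 level to above the highest 2D library. The log2 fold change of CD274 was -0.60 at day 7 (SE 0.22, adjusted p = 0.038), -0.050 at day 14 (SE 0.21, adjusted p = 0.88) and 0.55 between the time points (SE 0.22, adjusted p = 0.073). The day 7 call was lost on leaving out 2D replicate 2 (-0.59), 2D replicate 3 (-0.61) or any day 7 library (-0.64, -0.65 and -0.61). Without day 14 replicate 1, the rise between the time points was called (0.80) and the day 14 value against 2D turned to 0.18.

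PDCD1LG2 (chr9:5510570-5571254, plus strand, 7 exon blocks), which lies downstream of CD274 on the same strand, measured 22.0, 26.3 and 22.4 CPM in 2D, 25.7, 21.1 and 19.0 CPM at day 7 and 31.9, 53.7 and 53.3 CPM at day 14. Day 7 overlapped 2D, and all day 14 libraries were above all other libraries, with replicate 1 the lowest of the 3. Against 2D the log2 fold change of PDCD1LG2 was -0.10 at day 7 (SE 0.21, adjusted p = 0.72), 0.97 at day 14 (SE 0.21, adjusted p = 0.0034) and 1.07 between the time points (SE 0.21, adjusted p = 0.0033). Both calls were made in 16 of 16 alternative fits, with log2 fold changes of 0.79 to 1.19 and of 0.96 to 1.30.

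Per kilobase of exon, the ratio of CD274 to PDCD1LG2 was 1.38, 1.47 and 1.70 in the 2D libraries, 0.94, 1.14 and 1.18 at day 7 and 0.71, 0.66 and 0.85 at day 14. The 3 groups did not overlap, and PD-L2 transcripts outnumbered those of PD-L1 per kilobase in every day 14 library. The ratio was chosen after the levels were seen and has no test.

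**Figure D3:**
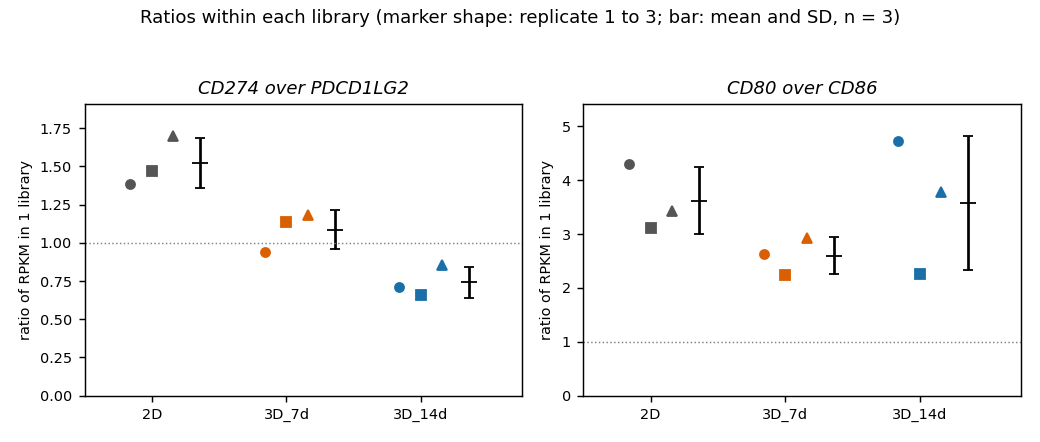
Ratio of RPKM within each library (y axis, from 0) for CD274 over PDCD1LG2 and for CD80 over CD86, with the mean and SD of 3 libraries. The first ratio runs from 1.38 to 1.70 in 2D down to 0.66 to 0.85 at day 14, and the second overlaps between 2D and day 14.

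The sequence before the RefSeq start of CD274 is shown because it carries the matches to interferon motifs found among the members' promoters, apart from 1 in TNFSF9. It covers chr9:5450292-5450502 on the plus strand, and the stretch nearest the start is left out because it is exonic in the deposited table. Capitals mark 2 overlapping minus-strand matches to the ISRE motif (GAAA, any 2 bases, GAAA), 208 and 202 bases before the start, and 1 match to the GAS motif (TTC, any 3 bases, GAA), 125 bases before it. An ISRE match occurs in 3.02% and a GAS match in 6.57% of all promoter windows. PDCD1LG2 was not among the promoter windows used.
CD274: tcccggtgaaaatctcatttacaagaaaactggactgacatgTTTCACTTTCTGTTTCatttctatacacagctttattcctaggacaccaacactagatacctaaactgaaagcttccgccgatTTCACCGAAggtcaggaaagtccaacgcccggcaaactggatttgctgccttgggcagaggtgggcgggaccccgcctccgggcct

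CD276, a member of the same B7 family whose receptor is not settled, was a low transcript in all groups (chr15:73684269-73714514, plus strand, 10 exon blocks). It measured 2.46, 1.80 and 2.30 CPM in 2D, 1.38, 1.08 and 1.18 CPM at day 7 and 0.93, 1.31 and 1.62 CPM at day 14, from 50 to 175 raw counts. Every bioprinted library was below every 2D library. CD276 had a log2 fold change of -0.85 at day 7 (SE 0.36, adjusted p = 0.073) and -0.76 at day 14 (SE 0.36, adjusted p = 0.11), so neither passed the threshold, and between the time points it was 0.083 (SE 0.36, adjusted p = 0.88). The day 7 value passed with DESeq2 (-0.86), with total counts alone, with only the 6 samples of the contrast (-0.87) and without day 14 replicate 1 (-0.86).

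LGALS9 encodes galectin-9, a secreted lectin that binds the inhibitory receptor encoded by HAVCR2. LGALS9 (chr17:27629798-27649560, plus strand, 11 exon blocks) measured 36.9, 31.7 and 31.7 CPM in 2D, 35.4, 25.3 and 18.7 CPM at day 7 and 43.4, 33.1 and 55.3 CPM at day 14. The 3 groups overlapped. Against 2D its log2 fold change was -0.34 at day 7 (SE 0.24, adjusted p = 0.26) and 0.39 at day 14 (SE 0.23, adjusted p = 0.21), and between the time points it rose by 0.73 (SE 0.24, adjusted p = 0.036). That call was lost without day 7 replicate 2 (0.72), day 7 replicate 3 (0.56) or day 14 replicate 3 (0.53), with total counts alone (0.69) and with only the 6 samples of the contrast (0.76). Of the 100-base stretches of LGALS9 transcripts, 5.70% recur in other annotated genes, so that some of its reads may not be assignable to 1 gene. That share was 0 for the other tested members.

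TNFRSF14, the receptor-like ligand of BTLA and CD160 and itself a receptor for TNFSF14, had the largest log2 fold changes against 2D of the 9 tested members. TNFRSF14 (chr1:2556222-2563829, plus strand, 9 exon blocks) measured 200.1, 200.5 and 211.6 CPM in 2D, 83.4, 55.3 and 53.7 CPM at day 7 and 97.3, 92.9 and 84.5 CPM at day 14. The 3 groups did not overlap, with 2D highest and day 7 lowest. The log2 fold change was -1.67 at day 7 (SE 0.17, adjusted p = 2.3e-05) and -1.16 at day 14 (SE 0.17, adjusted p = 0.00032), and both calls were made in 16 of 16 alternative fits. From day 7 to day 14 it rose by 0.51 (SE 0.17, adjusted p = 0.040), a call that was lost without 2D replicate 2 (0.53), day 7 replicate 2 (0.43), day 7 replicate 3 (0.43) or day 14 replicate 2 (0.51), and in 4 further fits: total counts alone (0.46), no filter (0.47), filterByExpr (0.50) and only the 6 samples of the contrast (0.54).

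The antisense gene TNFRSF14-AS1 shares 19.3% of the exonic bases of TNFRSF14 and moved with it. It measured 15.1 to 17.2 CPM in 2D, 4.01 to 5.04 CPM at day 7 and 6.08 to 7.19 CPM at day 14, with a log2 fold change of -1.83 at day 7 (SE 0.19, adjusted p = 2.6e-05) and -1.30 at day 14 (SE 0.19, adjusted p = 0.00031). Without strand, reads of the shared bases cannot be told apart, and how they were counted is not given. TNFRSF14-AS1 held 5589 reads over the 9 libraries and TNFRSF14 held 72293. The 101 bases before the first exon of TNFRSF14 in the deposited table, chr1:2556121-2556221 on the plus strand, are shown because this member had the largest fold change of the 9 tested, and they lie within the antisense gene. No match to the motifs searched was found in them or in the rest of its RefSeq window.
TNFRSF14: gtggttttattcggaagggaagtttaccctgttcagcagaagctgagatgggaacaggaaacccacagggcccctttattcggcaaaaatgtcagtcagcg

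TNFSF9, the ligand of the costimulatory receptor TNFRSF9, fell at day 7, and its day 14 libraries overlapped those of 2D. TNFSF9 (chr19:6531026-6535924, plus strand, 3 exon blocks) measured 219, 208 and 189 CPM in 2D, 144, 146 and 141 CPM at day 7 and 265, 216 and 180 CPM at day 14. The day 7 libraries were nearly equal and below all others, and day 14 spanned the 2D range on both sides. TNFSF9 had a log2 fold change of -0.51 at day 7 (SE 0.15, adjusted p = 0.016), 0.10 at day 14 (SE 0.15, 95% interval -0.23 to 0.43, adjusted p = 0.64) and 0.61 between the time points (SE 0.15, adjusted p = 0.011). The day 7 call was made in 14 of 16 alternative fits and was lost without 2D replicate 1 (-0.51, adjusted p = 0.053) and without a filter on low counts (-0.52, adjusted p = 0.066), and the sign at day 14 turned without day 14 replicate 1 (-0.050).

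The 250 bases before the start of TNFSF9, chr19:6530776-6531025 on the plus strand, held 1 ISRE match 194 bases before the start, in capitals, and are shown for that match.
TNFSF9: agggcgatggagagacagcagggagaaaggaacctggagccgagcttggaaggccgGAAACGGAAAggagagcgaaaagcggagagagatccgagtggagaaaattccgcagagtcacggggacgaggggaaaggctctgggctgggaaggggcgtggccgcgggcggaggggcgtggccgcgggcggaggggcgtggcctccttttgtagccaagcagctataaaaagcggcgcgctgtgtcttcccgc

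CD48, the ligand of CD244 on NK and T cells, also fell at day 7 and rose between the time points. CD48 (chr1:160678746-160711831, minus strand, 4 exon blocks) measured 290, 262 and 258 CPM in 2D, 144, 145 and 165 CPM at day 7 and 253, 228 and 247 CPM at day 14. All day 7 libraries were far below the rest, and the day 14 libraries lay just below the lowest 2D library. CD48 had a log2 fold change of -0.84 at day 7 (SE 0.13, adjusted p = 0.00031), -0.15 at day 14 (SE 0.13, 95% interval -0.43 to 0.13, adjusted p = 0.38) and 0.68 between the time points (SE 0.13, adjusted p = 0.0028). The day 7 and the time point calls were made in 16 of 16 alternative fits. With total counts alone the day 14 value was -0.36 (adjusted p = 0.035), beside a shift of -0.21 in the median of all genes. AL121985.1 shares 22.4% of the exonic bases of CD48, and it held 272 reads over the 9 libraries, against 125820 for CD48. How reads on the shared bases were counted is not given in the sources used here. The sequence before its first exon, chr1:160711832-160712072 read on the minus strand, is shown because CD48, like TNFRSF14, fell at day 7 in every fit, and it held no match to the motifs searched.
CD48: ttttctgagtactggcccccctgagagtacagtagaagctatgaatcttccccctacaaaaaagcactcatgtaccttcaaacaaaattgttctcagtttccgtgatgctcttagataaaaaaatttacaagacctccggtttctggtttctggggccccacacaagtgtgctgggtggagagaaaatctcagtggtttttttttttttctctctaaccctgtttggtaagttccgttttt

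None of the 11 RefSeq windows, which belong to 9 of the 10 members, held the E-box CACGTG, which 6.34% of all windows hold. No match was found for CD80, CD276, LGALS9 or ICOSLG. A match describes letters in these windows and no binding was measured.

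Levels can be compared between genes per kilobase of exon (RPKM from the TMM-scaled CPM and the deposited gene length). In 2D the order was TNFSF9 (125.8 ± 9.50 RPKM, SD, n = 3), TNFRSF14 (105.9 ± 3.39), CD48 (83.0 ± 5.33), CD274 (15.1 ± 1.94), LGALS9 (10.7 ± 0.96), CD80 (10.1 ± 0.25), PDCD1LG2 (9.96 ± 1.01), CD86 (2.84 ± 0.40), CD276 (0.50 ± 0.078) and ICOSLG (0.069 ± 0.015). The libraries of LGALS9 overlapped those of CD80, and those of CD80 overlapped those of PDCD1LG2, so these 3 had no order beyond their spread. The value of ICOSLG leaves out the reads of its copy. The lengths used for CD80, TNFRSF14, CD48 and LGALS9 include exonic bases shared with other genes.

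At day 7, CD48 (46.5 ± 3.56 RPKM) stood above TNFRSF14 (33.3 ± 8.69), and CD80 (13.2 ± 0.78) was the fourth and above CD274 (9.96 ± 0.41) without overlap. CD274, PDCD1LG2, LGALS9 and CD86 followed, and each of these 4 overlapped with its neighbours among them. At day 14, PDCD1LG2 (19.6 ± 5.28 RPKM) was the fourth, ahead of CD274 (14.6 ± 4.86), LGALS9 (14.1 ± 3.56) and CD80 (11.2 ± 1.78), and each of these 4 overlapped with its neighbours among them. TNFSF9 was first and CD86, CD276 and ICOSLG were the last 3 in every group.

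**Figure D4:**
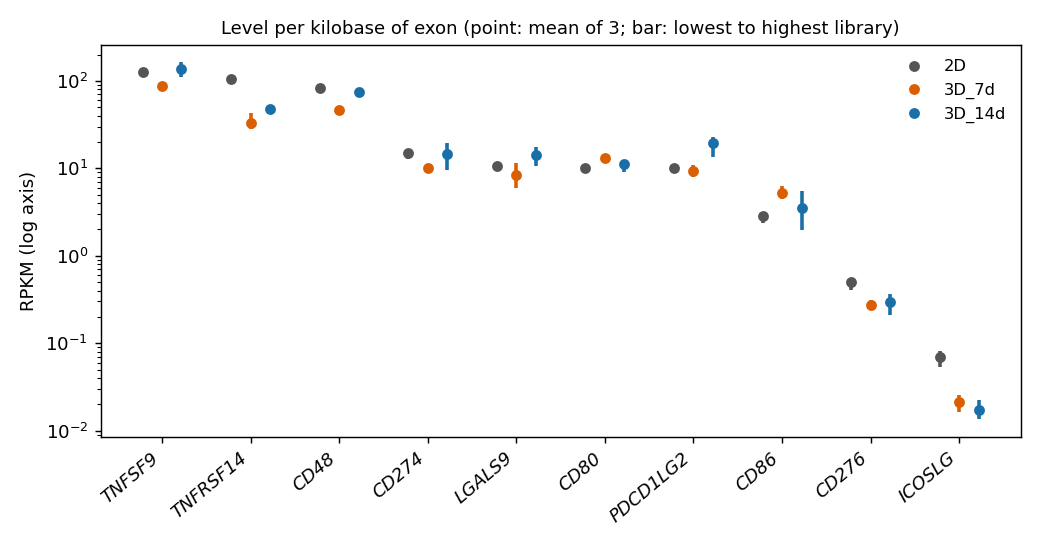
Level per kilobase of exon (RPKM, log axis) of the 10 members in the order of the 2D means, with the mean of 3 libraries as a point and the lowest to highest library as a bar. TNFSF9, TNFRSF14 and CD48 lie above all other members in each group, and ICOSLG lies lowest, at 0.069 RPKM in 2D.

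Of 12 receptors and partners of the ligands, 9 passed the filter in these cells and were tested. At day 7, 2 rose and 2 fell (median log2 fold change 0.18), at day 14, 3 rose and 2 fell (0.35), and between the time points 3 rose and 1 fell (0.018), where 43.4%, 36.2% and 28.1% of all tested genes passed in either direction. PDCD1, which encodes PD-1, measured 66.3, 64.6 and 57.0 CPM in 2D, 99.5, 91.9 and 84.3 CPM at day 7 and 118, 103 and 85.9 CPM at day 14. All bioprinted libraries were above all 2D libraries, and PDCD1 rose by 0.55 at day 7 (log2 scale, adjusted p = 0.010) and by 0.70 at day 14 (adjusted p = 0.0032). The day 7 call of PDCD1 was lost in 1 of 16 alternative fits, without 2D replicate 3, and the range over the 16 was 0.40 to 0.57.

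Of the partners of TNFRSF14, BTLA fell at day 7 and rose between the time points, TNFSF14 was lower than in 2D at day 14, and CD160 was higher there. BTLA, an inhibitory receptor of B and T cells, measured 132, 134 and 129 CPM in 2D and 91.3, 104 and 106 CPM at day 7, a fall of 0.39 on the log2 scale (adjusted p = 0.031). It rose by 0.52 between the time points (adjusted p = 0.013), and its day 14 value against 2D was 0.12 (adjusted p = 0.50). The fall of BTLA was called in 9 of 16 alternative fits (-0.55 to -0.35) and was lost without any of the 2D libraries, without day 7 replicate 1 or 2, with filterByExpr and without a filter. CD160 was 1.72 ± 0.40 CPM in 2D, 1.94 ± 0.62 CPM at day 7 and 8.75 ± 2.42 CPM at day 14, a rise of 2.35 on the log2 scale against 2D (adjusted p = 0.00028) that was called in 16 of 16 alternative fits. TNFSF14 was 47.5 ± 3.32, 36.2 ± 1.72 and 35.3 ± 5.08 CPM in the same order. Its log2 fold change was -0.39 with adjusted p = 0.053 at day 7 and -0.43 with adjusted p = 0.042 at day 14, and the latter was called in 8 of 16 alternative fits (-0.64 to -0.31), being lost without any of the 2D libraries, day 7 replicate 2 or day 14 replicate 3, with filterByExpr, without a filter and with only the 6 samples of the contrast.

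CD244, the receptor of CD48, measured 26.0, 25.3 and 26.8 CPM in 2D, 12.9, 11.1 and 9.56 CPM at day 7 and 14.0, 23.8 and 24.1 CPM at day 14. It fell at day 7 by 1.22 on the log2 scale (adjusted p = 0.00075) and rose by 0.88 between the time points (adjusted p = 0.010), each in 16 of 16 alternative fits, and CD48 passed the test in the same directions. TNFRSF9, the receptor of TNFSF9, measured 26.7, 21.9 and 20.4 CPM in 2D, 21.6, 22.8 and 14.7 CPM at day 7 and 5.32, 8.29 and 11.5 CPM at day 14. Its day 14 libraries lay below all others, with a log2 fold change of -1.46 against 2D (adjusted p = 0.0013) and of -1.24 against day 7 (adjusted p = 0.0054), where TNFSF9 had risen.

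HAVCR2, the receptor of galectin-9, was at 0.32 to 0.50 CPM in 2D, 1.78 ± 0.20 CPM at day 7 and 1.31 to 1.70 CPM at day 14. HAVCR2 rose by 2.10 on the log2 scale by day 7 (adjusted p = 0.00085) and stood 1.88 above 2D at day 14 (adjusted p = 0.0023). It passed the filter through the bioprinted samples alone, the groups where it was high, so its presence among the tested genes adds nothing to the difference. HAVCR2 is among the partners counted above as higher than in 2D at each time point. CD28 (log2 fold change 0.91 at day 7, adjusted p = 0.23) and RGMB, a further partner of PD-L2 (0.33, adjusted p = 0.39), were at 1.03 and 2.60 CPM in 2D and passed the threshold in no contrast. CTLA4, ICOS and CD2 were below the filter, and CTLA4 had at most 2 counts in each library of 2D and day 7 and up to 11 at day 14.

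**Figure D5:**
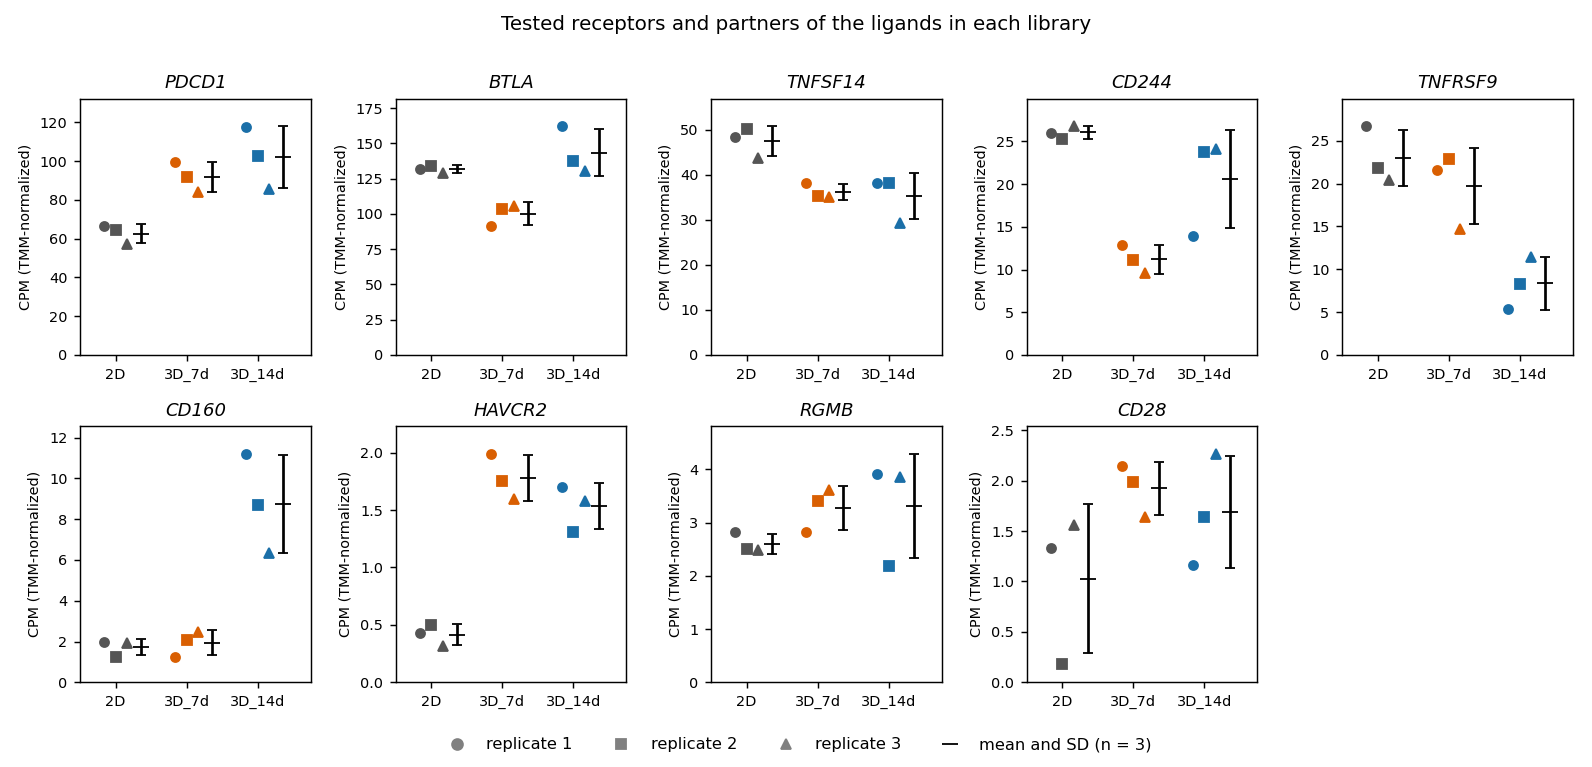
TMM-normalized CPM (y axis, from 0) of the 9 tested receptors and partners in each library, with the mean and SD of 3 libraries beside each group. PDCD1 is above its 2D libraries in all 6 bioprinted libraries, CD160 rises from 1.72 CPM in 2D to 8.75 CPM at day 14, and TNFRSF9 drops to 8.36 CPM at day 14.

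Further lists of related genes are given by their counts, and the genes named are the ones with the smallest p-values in each list. Beside each of these counts stands the share of all tested genes that passed in either direction, 43.4% at day 7, 36.2% at day 14 and 28.1% between the time points, and nothing particular to a list is read from them. Of 8 tested members of the B7 and butyrophilin families other than the ligands above, 0 rose and 3 fell at day 7 with edgeR (1 rose at an unadjusted p under 0.05 and 0 with DESeq2; median log2 fold change -0.34), 1 rose and 1 fell at day 14 (0.12), and 5 rose between the time points (0.54). VSIR, which encodes the checkpoint protein VISTA, was 76.8 ± 9.50 CPM in 2D, 36.2 ± 2.26 CPM at day 7 and 95.2 ± 14.3 CPM at day 14, with log2 fold changes of -1.09 at day 7 (adjusted p = 0.00019) and 1.39 between the time points (adjusted p = 0.00015). BTNL9 fell by 1.66 and then rose by 1.32 on the same scale. BTN2A2 (0.46, adjusted p = 0.024) and NCR3LG1 (-2.301, adjusted p = 0.039), a ligand of an NK cell receptor, were called at day 14, in 10 of 16 and in 8 of 12 alternative fits. NCR3LG1 was near the limit of detection, at 0.67 to 1.07 CPM in 2D, 0.087 to 1.24 CPM at day 7 and 0.072 to 0.36 CPM at day 14. It passed the filter through 2D and day 7 samples alone, where it was higher, and is named because of its values.

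In a list of further SLAM family members, CD58 and adaptors (CD48 and CD244 belong to that family), 2 of 7 tested genes rose and 2 fell at day 7, 3 rose and 2 fell at day 14, and 3 rose between the time points. LY9 went from 275 ± 2.83 CPM in 2D to 58.3 ± 5.15 CPM at day 7 and 168 ± 27.4 CPM at day 14. SH2D1A, the adaptor of SLAM family receptors, went from 33.4 ± 4.03 to 4.64 ± 0.36 and 14.5 ± 3.20 CPM. Both were below 2D at each time point and above day 7 at day 14, and each of these calls was made in 16 of 16 alternative fits.

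Among 7 tested genes of other costimulatory TNF superfamily pairs, 2 rose and 3 fell at day 7, 1 rose and 1 fell at day 14, and 3 rose and 1 fell between the time points. One of the genes that rose at day 7, TNFSF4 (0.066 to 0.63 CPM in 2D and 1.20 to 1.61 CPM at day 7), passed the filter through its day 7 samples alone, the group where it was high, and is named because of its values. CD27 rose from 201 ± 19.2 CPM in 2D to 406 ± 35.3 CPM at day 7 and 797 ± 165 CPM at day 14, while its ligand CD70 fell from 593 ± 61.4 CPM in 2D to 378 ± 23.2 CPM at day 7 (log2 fold change -0.65, adjusted p = 0.0093). CD70 then rose to 798 ± 201 CPM at day 14 (1.08 between the time points, adjusted p = 0.0011), where it was not called against 2D (0.43, adjusted p = 0.069). TNFRSF4, the OX40 receptor, was 11.7 ± 2.81, 3.57 ± 0.27 and 14.9 ± 6.50 CPM in the 3 groups in turn. TNFRSF8 fell at day 14 by 0.96 on the log2 scale (adjusted p = 0.010).

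Of 8 tested genes for other inhibitory ligands, 1 rose and 3 fell at day 7, 5 rose and 2 fell at day 14, and 4 rose between the time points. LGALS1, another galectin, went from 393 ± 38.8 CPM at day 7 to 1119 ± 517 CPM at day 14 (log2 fold change 1.51, adjusted p = 0.0019), and LGALS3 from 133 ± 14.3 to 239 ± 35.7 CPM (0.85, adjusted p = 0.0020). HMGB1 was lower than in 2D at day 7 (-0.96) and at day 14 (-1.03), and so was CLEC2D (-0.87 and -0.54).

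Of 11 tested regulators of PD-L1, 4 rose and 1 fell at day 7, 5 rose and 1 fell at day 14, and 0 passed the threshold between the time points with edgeR (1 at an unadjusted p under 0.05 and 0 with DESeq2). REL, an NF-kB subunit, fell at day 7 from 30.4 ± 3.07 to 12.7 ± 3.80 CPM (-1.26, adjusted p = 0.00086). It was also lower than in 2D at day 14 (-0.76, adjusted p = 0.019). STUB1, a ubiquitin ligase, was higher at day 14 than in 2D, at 162 ± 60.3 against 81.2 ± 5.94 CPM (0.99, adjusted p = 0.0041). It was already higher than in 2D at day 7 (0.82, adjusted p = 0.0098), and the time points did not differ by the test (0.18, adjusted p = 0.57).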

How the data were processed

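The authors trimmed single reads with Trimmomatic (version 0.39), aligned them to GRCh38 with STAR (version 2.5.3a) and GENCODE annotation, and assigned them to genes with featureCounts (version 1.6.4). The deposited values are raw counts per gene symbol, without normalization, with a gene length. The strand setting and the handling of reads with several alignments are not given in the sources used here. Samples were grouped by culture and time point from the labels.

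A gene was tested if at least 3 samples exceeded a CPM of 1, which kept 13463 of 51726 symbols with counts. In R (version 4.3.3), edgeR (version 4.0.16) was used for TMM factors and for the quasi-likelihood test in 1 model of the 9 samples, with 3 contrasts, Benjamini-Hochberg adjustment over all tested genes and a threshold of 0.05. CPM and RPKM were computed from the TMM-scaled library sizes. The study's text names DESeq and DESeq2, and DESeq2 (version 1.42.0) was an alternative here, beside its size factors, total counts alone, filterByExpr, no filter, the 6 samples of a contrast, a replicate block and leaving out each sample. With exact permutation of 3 against 3 samples the smallest p is 0.1, so single genes were not tested that way. The pipeline was tested on simulated counts.

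All 10 members and all of their receptors were named, and in every other list the up to 2 called genes with the smallest p in each contrast. A gene that this rule names is not reported here. The members and lists were chosen with earlier results of these data known. Exonic overlap was read from the deposited coordinates, and repeated stretches from GENCODE transcripts (release 44). The tested members had at least 50 counts in each library, with the fewest in CD276, where counting error was a large part of the spread between replicates at day 7.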

Additional observations from a re-analysis of the deposited data

Results flagged for a closer look

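For 5 members the effect against 2D differed between the time points by the test of the difference itself, the contrast of day 14 with day 7, beside 28.1% of all tested genes. The difference in log2 fold change was 1.07 for PDCD1LG2, 0.73 for LGALS9, 0.51 for TNFRSF14, 0.61 for TNFSF9 and 0.68 for CD48, in each case toward a higher level at day 14. The calls of PDCD1LG2 and CD48 were made in 16 of 16 alternative fits, that of TNFSF9 in 15, that of LGALS9 in 11 and that of TNFRSF14 in 8. Groups of 3 samples were too small for a test of single outlying libraries.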

How the results depend on the processing

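Of 432 refits of the 27 member results, 384 kept both direction and side of the threshold, 29 lost a call, 13 gained one and 6 changed sign. The number of members called at day 7 was 3 to 7 on leaving out 1 sample, 3 in each fit without a 2D or a day 7 sample, against 5. Between the time points it was 3 to 6 on leaving out 1 sample, and 3 with total counts alone, without a filter or with only the 6 samples of the contrast. The 2 calls at day 14 were made in 16 of 16 alternative fits. A further member passed there with total counts alone (CD48, adjusted p = 0.035) and with filterByExpr (ICOSLG, adjusted p = 0.039), and so did ICOSLG when summed with its copy. ICOSLG alone failed the main filter, had its highest counts in 2D and was not called without a filter (adjusted p = 0.17). The sum, made after the data were seen, passed the filter in every 2D sample, the group where it was high. These ICOSLG calls therefore add no independent result. Sign changes were all of values that passed no threshold: CD80 (-0.041) and TNFSF9 (-0.11) at day 14 with total counts alone, and, on leaving out 1 sample, CD86 at day 14 (-0.13 to 0.62, negative without day 14 replicate 2), CD274 at day 14 (-0.30 to 0.18) and TNFSF9 at day 14 (-0.050 to 0.23), both turned without day 14 replicate 1, and CD276 between the time points (-0.11 to 0.29, negative without day 14 replicate 3). Same-numbered samples of different groups deviated from their group means with correlations of -0.10 to 0.19, so the numbers were not taken as pairs. With the replicate block, all 27 results kept direction and call, and the members called were 5, 2 and 5. Counts of called genes in the lists moved by over 1.5 times, or changed between none and some, in 88 of 576 refits. The causes were not tested.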
